A study of Rattus norvegicus with 10 samples.

Results

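Ccl20, Ccl2, Icam1, Vcam1 and Nfkbia are genes of leukocyte recruitment and of the NF-kappaB pathway, and they were followed in whole kidneys of male Sprague-Dawley rats. The 5 genes were taken by Ensembl identifier and chromosome from the 32623 genes of the deposited count table, and all 5 are among the 15047 genes that had enough counts to be tested. They were selected on the dehydrated-over-control differences of these same libraries, so each fold change of the 5 below is a description and carries no test of its own. The dehydrated group was 5 rats with no access to water for 72 hours, and the control group was 5 rats that drank freely. All 10 animals were killed in the late morning, and polyadenylated RNA of the whole organ was sequenced as 1 library per animal. The labels state neither their age nor their food intake.

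The chemokine Ccl20 is the ligand of the receptor Ccr6 and attracts Th17 cells, immature dendritic cells and B cells. Ccl2 is the ligand of Ccr2 and draws monocytes out of the blood into tissue. Icam1 and Vcam1 are adhesion molecules on endothelium and on some epithelial cells, and leukocytes hold on to them through beta-2 integrins (Icam1) and the integrin VLA-4 (Vcam1). Nfkbia encodes IkappaB-alpha, the inhibitor that keeps NF-kappaB in the cytoplasm; NF-kappaB switches on the gene of its own inhibitor, which closes a negative feedback loop. All 5 genes are known targets of NF-kappaB in cells exposed to cytokines such as TNF, and in the kidney tubular epithelium, endothelium and resident immune cells are known sources of their transcripts.

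The promoters are shown because NF-kappaB is the factor the 5 genes are known to share. RefSeq promoter sequence (build GRCr8) was matched by symbol for 4 of the 5 genes, all but Ccl2. The 250 bases before each annotated start are printed on the strand of the gene, and capitals mark every match, on either strand, to the NF-kappaB consensus of 10 letters or to the shorter motif GGANNTTCC.
Ccl20, chr9:91836909-91837158, plus strand: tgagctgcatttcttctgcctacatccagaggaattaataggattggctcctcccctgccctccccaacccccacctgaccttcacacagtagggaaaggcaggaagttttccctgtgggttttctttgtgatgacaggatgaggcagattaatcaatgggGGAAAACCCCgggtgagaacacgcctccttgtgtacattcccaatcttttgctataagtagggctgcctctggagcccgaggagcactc
Icam1, chr8:27829595-27829844, plus strand: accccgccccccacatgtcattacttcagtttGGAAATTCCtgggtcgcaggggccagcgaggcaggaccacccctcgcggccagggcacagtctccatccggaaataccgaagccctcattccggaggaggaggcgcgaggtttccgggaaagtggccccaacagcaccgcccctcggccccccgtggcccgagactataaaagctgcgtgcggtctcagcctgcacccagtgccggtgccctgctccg
Vcam1, chr2:206742784-206743033, minus strand: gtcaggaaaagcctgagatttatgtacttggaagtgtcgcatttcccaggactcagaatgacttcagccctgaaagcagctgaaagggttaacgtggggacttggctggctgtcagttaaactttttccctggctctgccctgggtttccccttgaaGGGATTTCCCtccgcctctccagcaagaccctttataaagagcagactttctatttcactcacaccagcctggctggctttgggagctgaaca
Nfkbia, chr6:78597073-78597322, minus strand: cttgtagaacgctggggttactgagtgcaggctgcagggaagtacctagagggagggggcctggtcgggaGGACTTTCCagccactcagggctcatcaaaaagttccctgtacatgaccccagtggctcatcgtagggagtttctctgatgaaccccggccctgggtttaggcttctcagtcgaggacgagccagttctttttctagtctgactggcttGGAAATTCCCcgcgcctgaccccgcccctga

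Each of the 4 windows held a match. In Ccl20 the consensus lay on the opposite strand, at bases -89 to -80 from the start, and in Vcam1 it lay at -93 to -84 on both strands. Nfkbia held the consensus on the opposite strand only, at -31 to -22, where GGANNTTCC overlaps it on both strands. A second, separate GGANNTTCC lay at -180 to -172. In Icam1 only GGANNTTCC was found, at -218 to -210 on both strands. Of all 33469 RefSeq promoters searched over the same 250 bases, 6.33% held the consensus, 3.36% held GGANNTTCC and 8.28% held either. The motifs were picked with these sequences in view, and a match is a stretch of letters, not a measured binding site.

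Library totals ranged from 29454213 to 35898689 assigned fragments in dehydrated and from 29757442 to 35153435 in control kidneys, and the difference of the means was within the spread (p = 0.913, two-sided exact permutation test, 5 libraries a group). Values are given as CPM, fragments per 1000000 fragments of tested genes after TMM scaling of the libraries, and at these depths 3 fragments correspond to 0.0818 to 0.103 CPM. Both replicates numbered 6 have library names that carry the other group's letter, although titles and treatment labels place them as used here. The authors' deposited table was computed with the titled groups, since a DESeq2 fit of the counts with those groups gave its log2 fold changes for all 15284 listed genes within 1e-06. None of the 32623 Ensembl identifiers is paired with a symbol in the reference table used here (0 matched), so markers of kidney and immune cells, and the planned lists of other chemokines, chemokine receptors, adhesion molecules, NF-kappaB subunits and upstream cytokines, were not analysed here. The symbols of the 5 genes come with the identifiers in the rule that chose them, and in RefSeq each symbol lies on the chromosome given for its identifier.

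Ccl20 and Nfkbia were higher in every dehydrated kidney than in any control kidney, Ccl2 was higher in most but not all, and Icam1 and Vcam1 stayed close to the control level. In the fit over all tested genes, 3 of the 5 genes passed the threshold of an adjusted p below 0.05 by edgeR's quasi-likelihood test, all 3 higher (Ccl20, Ccl2 and Nfkbia), and 0 of the 5 passed it lower. Over all tested genes 8.47% passed, 4.70% higher and 3.77% lower. All dehydrated kidneys lay above all control kidneys for 2 of the 5 genes, against 4.39% of all tested genes (7.87% with either direction counted). Since this contrast was known when the genes were chosen, nothing is read from these shares. Without both libraries numbered 6, the log2 fold changes were 3.41 for Ccl20, 1.30 for Ccl2 and 0.64 for Nfkbia. Icam1 was at 0.07 and Vcam1 at -0.18. In that fit Ccl20 and Nfkbia passed and Ccl2 did not, and 896 genes passed in all. In bulk tissue, more cells of a type and more RNA per cell cannot be told apart, and this holds for every value below.

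**Figure D1:**
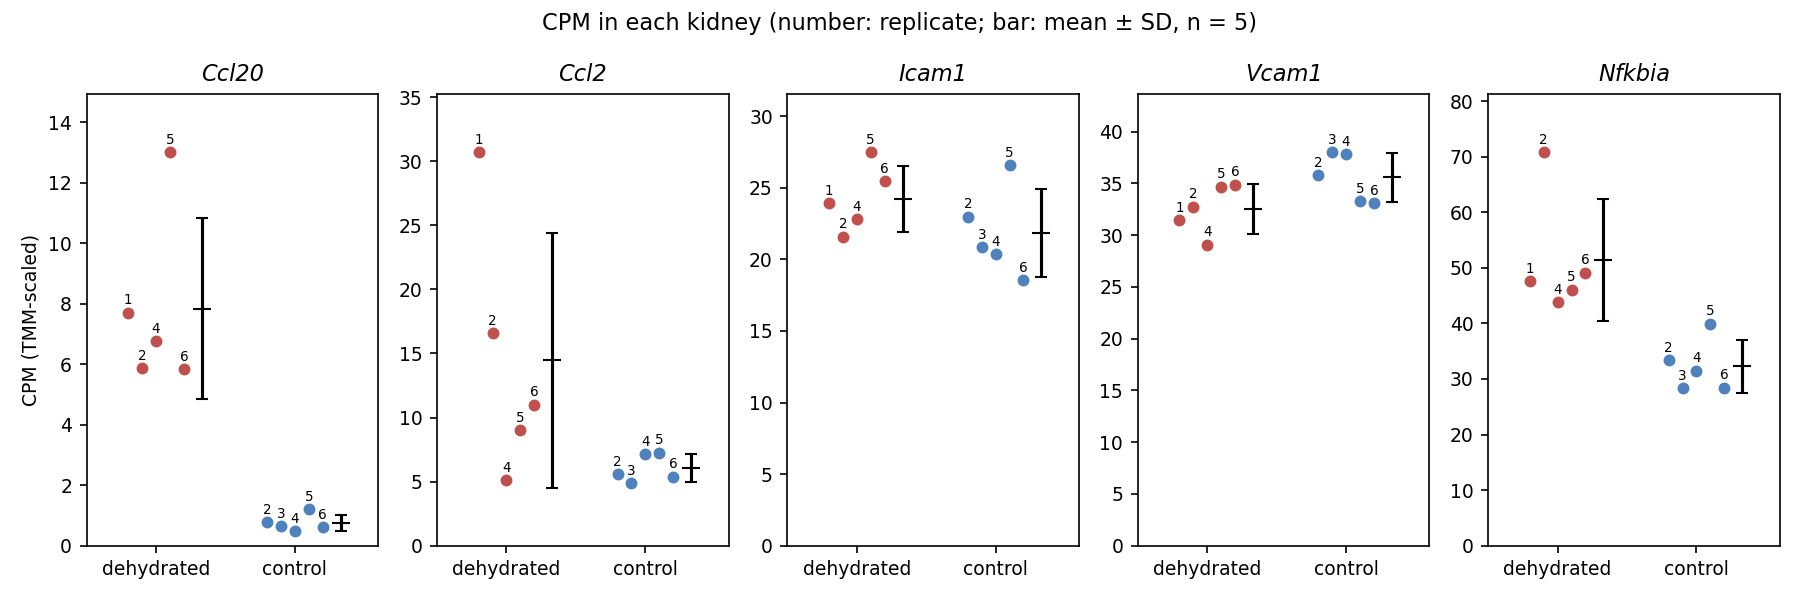
CPM (fragments relative to the library total, TMM-scaled, linear axis from 0) of each gene in each kidney, dehydrated left and control right, with the replicate number above each point and the group mean ± SD (n = 5) as a bar. For Ccl20 and Nfkbia the dehydrated points lie above all control points, for Ccl2 4 of 5 do, and for Icam1 and Vcam1 the groups overlap.

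Ccl20 (ENSRNOG00000015992) lies on chromosome 9, 88918433 to 88921001, plus strand of Rnor_6.0, with 4 exon ranges and 787 bp of exon. It had 271, 194, 201, 477 and 175 fragments in dehydrated replicates 1, 2, 4, 5 and 6. It had 26, 20, 17, 42 and 18 fragments in control replicates 2, 3, 4, 5 and 6. Even the lowest dehydrated kidney thus had several times the fragments of the highest control kidney.

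Scaled to depth, Ccl20 measured 7.70, 5.87, 6.77, 13 and 5.84 CPM in the same dehydrated kidneys. The control kidneys had 0.783, 0.650, 0.484, 1.21 and 0.617 CPM. The means were 7.83 ± 2.99 CPM in dehydrated and 0.748 ± 0.277 CPM in control kidneys (SD, n = 5 each). The fitted log2 fold change was 3.38 (SE 0.28), a 10.4-fold difference. Dehydrated replicate 5 stood apart at the top of its group, while the other 4 dehydrated kidneys lay between 5.84 and 7.70 CPM. Without replicate 5 of the dehydrated group the log2 fold change was 3.12, the lowest value with any 1 library left out, and Ccl20 passed the all-gene threshold in each of those 10 fits.

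The relative spread of Ccl20 was alike in both groups although its level was not. The coefficient of variation over kidneys was 38.1% in dehydrated and 37.1% in control kidneys. Counting alone would give 6.2% at the mean of 263.6 fragments in dehydrated kidneys and 20% at the mean of 24.6 fragments in control kidneys. The spread between dehydrated kidneys was thus several times the counting error, and counting error took a larger part of it in control kidneys.

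Ccl2 (ENSRNOG00000007159) lies on chromosome 10, 69412017 to 69413870, plus strand, with 3 exon ranges and 835 bp of exon. It had 30.7, 16.6, 5.12, 8.99 and 11 CPM in dehydrated replicates 1, 2, 4, 5 and 6. The control kidneys had 5.60, 4.87, 7.15, 7.27 and 5.38 CPM in replicates 2, 3, 4, 5 and 6. Of the dehydrated kidneys, 4 were above the highest control kidney, and replicate 4 lay inside the control range.

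Mean Ccl2 was 14.5 ± 9.96 CPM in dehydrated and 6.06 ± 1.09 CPM in control kidneys (SD, n = 5 each), with a fitted log2 fold change of 1.26 (SE 0.36), a 2.39-fold difference. The dehydrated animals differed 6.00-fold from lowest to highest and the control animals 1.49-fold. The coefficient of variation was 68.8% in dehydrated and 17.9% in control kidneys, where counting alone would give 4.5% and 7.1%; the difference in spread between the groups was not tested. Leaving out dehydrated replicate 1, the highest, brought the log2 fold change to 0.78. Ccl2 passed the all-gene threshold in only 2 of the 10 fits that left out 1 library, those without dehydrated replicate 4 or dehydrated replicate 5, and it did not pass without dehydrated replicates 1, 2 or 6 or without any single control replicate. It also missed the threshold in limma voom, with a log2 fold change of 1.03, so its call depended on the libraries and the tool.

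Icam1 (ENSRNOG00000020679) lies on chromosome 8, 22035256 to 22047059, plus strand, with 7 exon ranges and 2643 bp of exon. It had 23.9, 21.6, 22.8, 27.5 and 25.5 CPM in dehydrated replicates 1, 2, 4, 5 and 6. The control kidneys had 23.0, 20.9, 20.4, 26.6 and 18.6 CPM in replicates 2, 3, 4, 5 and 6. The groups overlapped, and 1 dehydrated kidney lay above the highest control kidney.

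Mean Icam1 was 24.2 ± 2.31 CPM in dehydrated and 21.9 ± 3.08 CPM in control kidneys (SD, n = 5 each). Its log2 fold change was 0.15 (SE 0.10), a difference of 10.8%, and it did not pass the all-gene threshold in any fit with the titled groups. Leaving out 1 library gave log2 fold changes of 0.09 to 0.23.

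Vcam1 (ENSRNOG00000014333) lies on chromosome 2, 219071193 to 219097619, minus strand, with 16 exon ranges and 4007 bp of exon. It had 31.4, 32.8, 29.1, 34.7 and 34.9 CPM in dehydrated replicates 1, 2, 4, 5 and 6. The control kidneys had 35.8, 38.0, 37.8, 33.3 and 33.1 CPM in replicates 2, 3, 4, 5 and 6. The groups overlapped, with 3 dehydrated kidneys below the lowest control kidney.

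Mean Vcam1 was 32.6 ± 2.42 CPM in dehydrated and 35.6 ± 2.37 CPM in control kidneys (SD, n = 5 each). Its log2 fold change was -0.13 (SE 0.07) and it did not pass the all-gene threshold in any fit with the titled groups. The 2 adhesion molecules had point estimates of opposite sign, neither of them past the threshold.

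Nfkbia (ENSRNOG00000007390) lies on chromosome 6, 76267228 to 76270457, minus strand, with 6 exon ranges and 1565 bp of exon. It had 47.6, 70.8, 43.8, 46.1 and 49.1 CPM in dehydrated replicates 1, 2, 4, 5 and 6. The control kidneys had 33.4, 28.3, 31.5, 40.0 and 28.4 CPM in replicates 2, 3, 4, 5 and 6. All dehydrated kidneys lay above all control kidneys, the nearest pair being dehydrated replicate 4 and control replicate 5.

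Mean Nfkbia was 51.5 ± 11 CPM in dehydrated and 32.3 ± 4.78 CPM in control kidneys (SD, n = 5 each). The log2 fold change was 0.67 (SE 0.13), a 1.59-fold difference. Without dehydrated replicate 2, the highest kidney, it was 0.53, and Nfkbia passed the all-gene threshold in each of the 10 fits with 1 library left out.

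**Figure D2:**
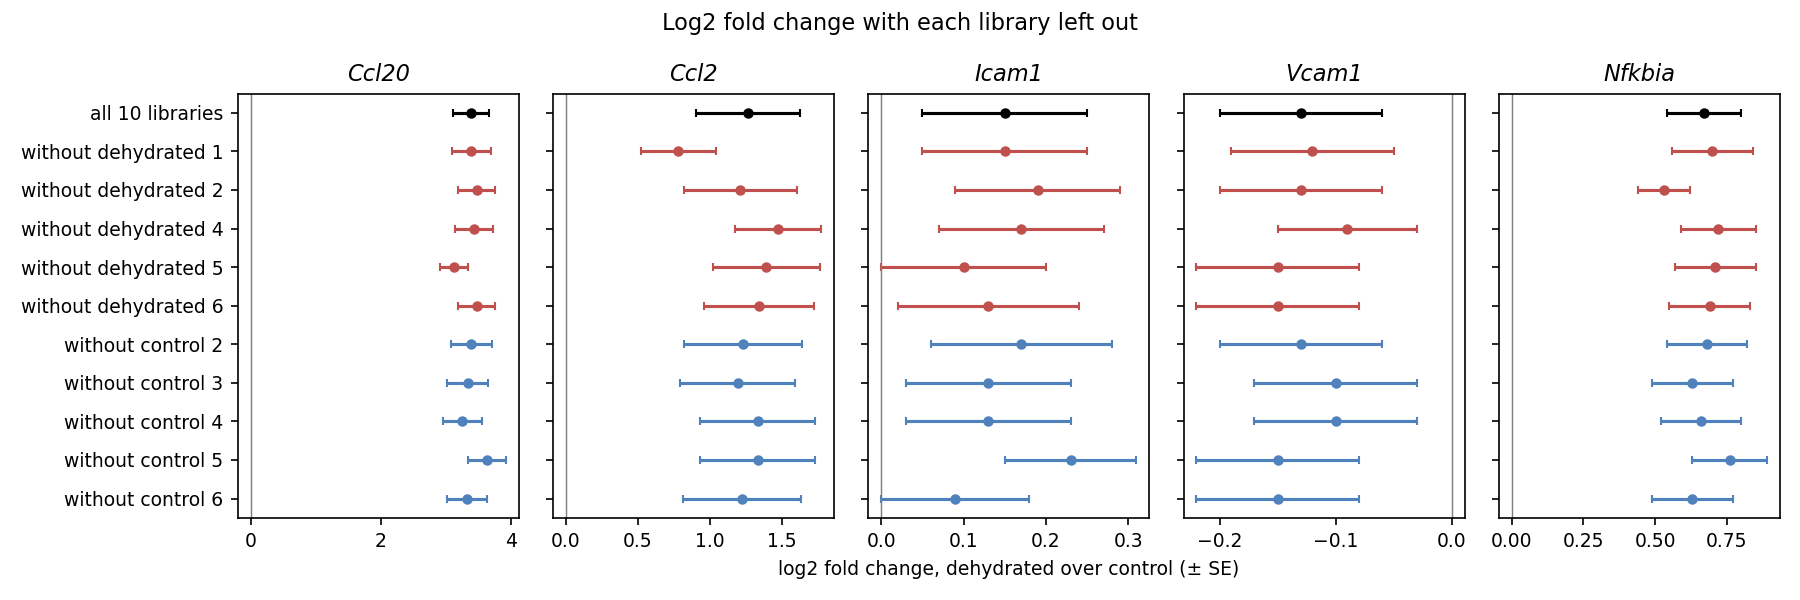
Log2 fold change of dehydrated over control kidneys (x axis, ± SE, a scale of its own for each gene) with all 10 libraries in black, and with 1 dehydrated (red) or 1 control (blue) library left out. Ccl20 stays between 3.12 and 3.63 and Nfkbia between 0.53 and 0.76, while Ccl2 moves to 0.78 without dehydrated replicate 1.

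The authors' deposited table gives log2 fold changes of 3.39 for Ccl20, 1.26 for Ccl2, 0.15 for Icam1, -0.13 for Vcam1 and 0.67 for Nfkbia. In the authors' deposited table the same 3 genes have an adjusted p below 0.05, where 11.4% of the genes with an adjusted p do. The standard error of Ccl2 there is 0.44, the largest of the 5.

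Levels were compared between genes per length, as FPKM, the CPM divided by the exon length in kilobases. In dehydrated kidneys Nfkbia was highest with 32.9 ± 7.01 FPKM, followed by Ccl2 with 17.3 ± 11.9, Ccl20 with 9.95 ± 3.80, Icam1 with 9.17 ± 0.872 and Vcam1 with 8.13 ± 0.603 FPKM (SD, n = 5 each). The range over dehydrated kidneys of each gene overlapped that of the next in this order. Ranges over kidneys do not compare the genes within the same kidney. In dehydrated replicates 1, 2, 4, 5 and 6, Ccl20 had 9.78, 7.46, 8.60, 16.5 and 7.41 FPKM. Icam1 had 9.05, 8.16, 8.62, 10.4 and 9.64 FPKM in the same kidneys. Ccl20 thus lay below Icam1 in replicates 2, 4 and 6, although its mean was higher. Ccl2 was above Nfkbia in dehydrated replicate 1 only (36.8 against 30.4 FPKM). In control kidneys Nfkbia was also highest with 20.6 ± 3.06 FPKM, then came Vcam1 with 8.88 ± 0.591, Icam1 with 8.28 ± 1.16, Ccl2 with 7.25 ± 1.30 and, last, Ccl20 with 0.951 ± 0.352 FPKM (SD, n = 5 each). There every control library of Nfkbia lay above, and every control library of Ccl20 below, those of the other genes, while Vcam1, Icam1 and Ccl2 overlapped. Ccl20 thus had the lowest level of the 5 in control kidneys and, in dehydrated kidneys, a level in the range of the adhesion molecules.

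**Figure D3:**
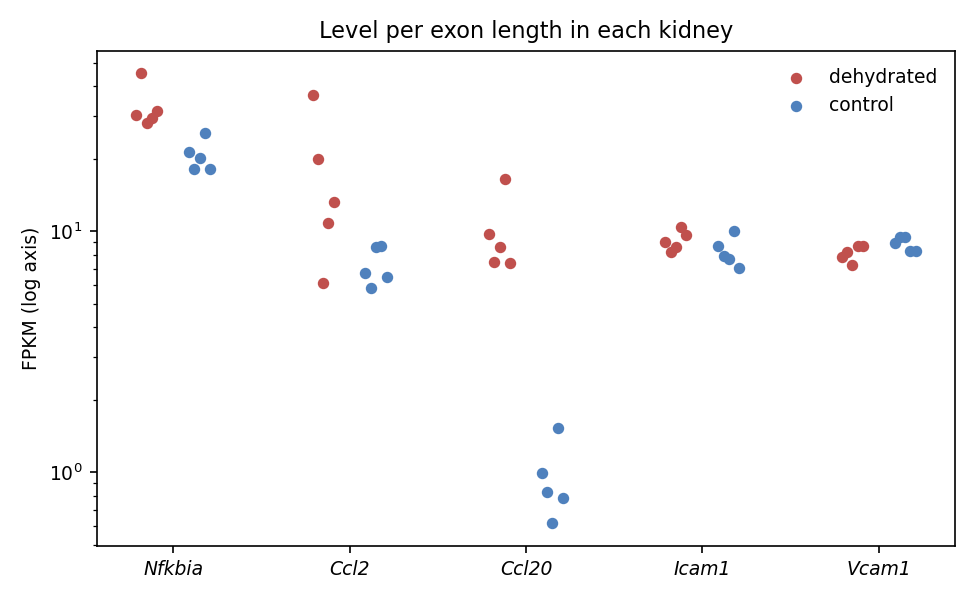
Level of each gene in FPKM (log axis) in each dehydrated (red) and control (blue) kidney, ordered by the mean in dehydrated kidneys. Ccl20 lies between 0.615 and 1.53 FPKM in control kidneys and between 7.41 and 16.5 FPKM in dehydrated kidneys, next to Icam1 and Vcam1.

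The balance of the 2 chemokines per length differed between the groups in every kidney. Ccl20 over Ccl2 was 0.266 to 1.53 (median 0.563) in dehydrated and 0.0719 to 0.176 (median 0.141) in control kidneys. In all control kidneys Ccl2 was therefore the more abundant of the pair, by 5.68-fold or more. Icam1 over Vcam1 was 0.999 to 1.20 in dehydrated and 0.816 to 1.21 in control kidneys, ranges that overlap. These ratios use the same contrast that was known when the genes were chosen and were not tested.

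The 5 genes did not order the animals in the same way. Among dehydrated kidneys, replicate 5 was highest for Ccl20 and Icam1, replicate 1 for Ccl2, replicate 2 for Nfkbia and replicate 6 for Vcam1. Replicate 4 was lowest for Ccl2, Vcam1 and Nfkbia. The dehydrated kidney with the most Ccl20 had rank 4 of 5 for Ccl2 and for Nfkbia. Among control kidneys, by contrast, replicate 5 was highest for 4 of the 5 genes, Ccl20, Ccl2, Icam1 and Nfkbia, and had rank 4 for Vcam1. With control replicate 5 left out the log2 fold changes of Ccl20, Icam1 and Nfkbia were the highest of the 10 such fits, at 3.63, 0.23 and 0.76. With 5 kidneys a group, a correlation within a group was not computed.

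**Figure D4:**
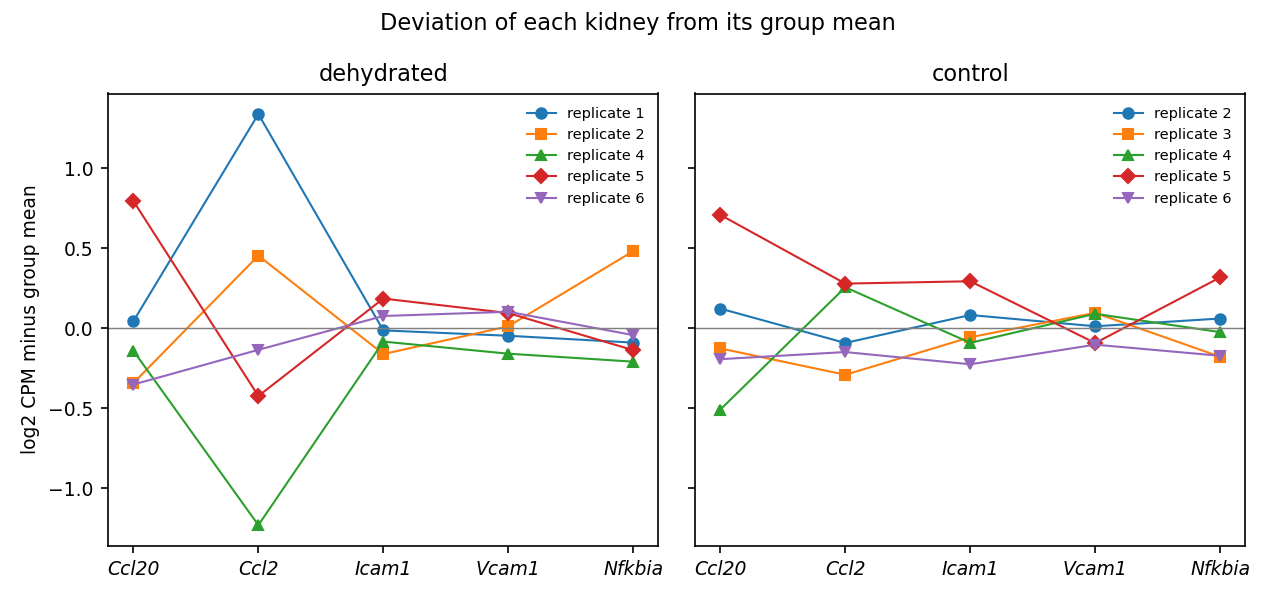
Deviation of each kidney from its group mean (log2 CPM, prior count 2) for the 5 genes, dehydrated left and control right, 1 line per animal; the lines join genes of 1 animal and have no other meaning. Control replicate 5 lies above its group mean for Ccl20, Ccl2, Icam1 and Nfkbia, while in the dehydrated group different animals lead for Ccl20, Ccl2 and Nfkbia.

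The spread between animals within a group enters the tests that were known when the genes were chosen, so it too is given as a description. The SD of log2 CPM (prior count 2) of Ccl2 was 0.96 in dehydrated and 0.25 in control kidneys. Among the 2379 tested genes whose mean CPM in dehydrated kidneys was within 1.5 times that of Ccl2, 99.9% had a lower SD there. Among the 1605 genes within 1.5 times its mean in control kidneys, 77.6% had a lower SD there. Ccl20 had an SD of 0.47 in dehydrated and 0.46 in control kidneys, above 98.4% of the 1750 genes of like level in dehydrated and 73.3% of the 1051 genes of like level in control kidneys. Nfkbia had an SD of 0.28 in dehydrated and 0.20 in control kidneys, above 97.2% of 2850 and 89.9% of 2950 such genes. Icam1 and Vcam1 were closer to the middle in dehydrated kidneys: their SDs of 0.14 and 0.11 were above 66.9% and 54.8% of the genes of like level. In control kidneys the SD of Icam1, 0.20, was above 84.7% of such genes and that of Vcam1, 0.10, was above 45.7%. The 3 genes of the 5 that were called higher were thus also the 3 with the widest spread between dehydrated animals.

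**Figure D5:**
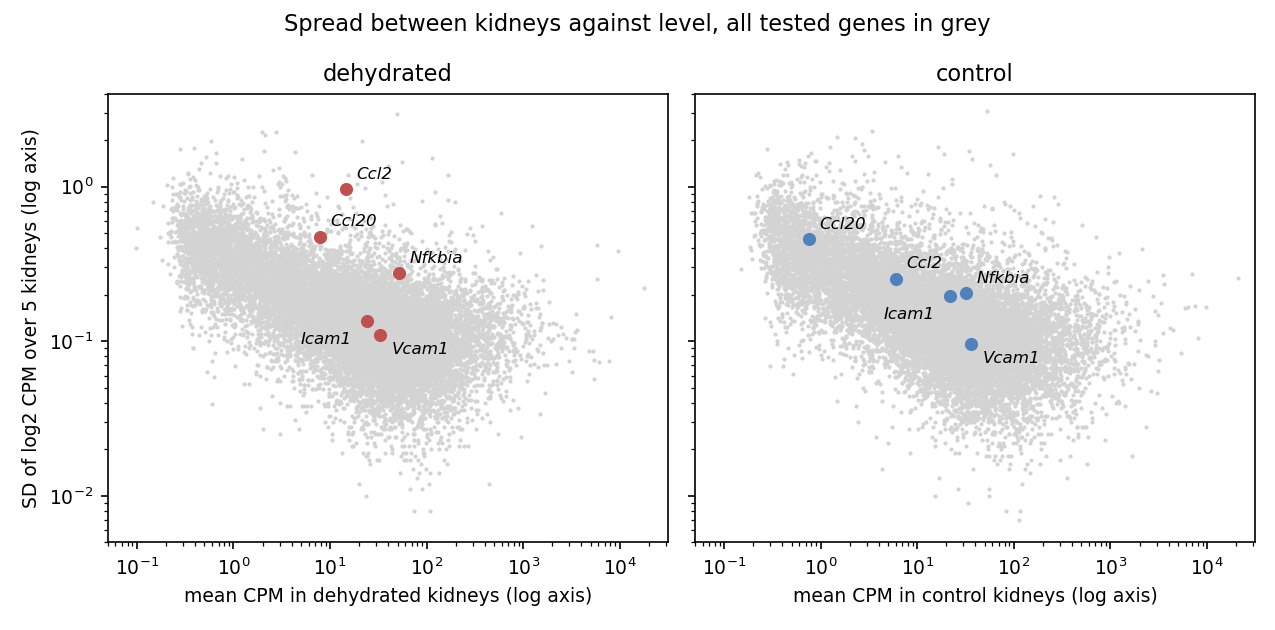
SD of log2 CPM over 5 kidneys against mean CPM (both log axes) for all tested genes in grey and the 5 genes in colour, dehydrated left and control right. Ccl2 stands at 0.96 in the dehydrated group, at the upper edge of genes of its level, while Vcam1, at 0.11, lies in the middle.

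The genes around the 5 were read from the same fit, since position played no part in the choice beyond the chromosome check. Within 500 kb of the 5 genes on either side, 57 other genes were tested. Of these 5 were called higher and 1 lower, 10.5% against 8.47% of all tested genes. The share was 9.38% within 250 kb (3 of 32) and 6.31% within 1000 kb (7 of 111), so whether it lay above or below that of all genes depended on the distance chosen. Of these 6 calls 2 were made in every fit with 1 library left out. None of the 6 tested genes near Ccl20 was called, and 1 of 2 near Ccl2 was, higher. Near Nfkbia 1 of 13 was called, lower, and near Icam1 and Vcam1 2 of 28 and 2 of 8 were called, all higher.

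The 2 neighbours called in every such fit were picked out with their values known, and each lies far from its gene. The one 412.4 kb from Vcam1 (chromosome 2, 218654554 to 218658761, minus strand) averaged 20.3 CPM in dehydrated and 13.5 CPM in control kidneys, 0.59 higher on the log2 scale (SE 0.09; adjusted p of 0.0011 in edgeR), and 0.51 to 0.64 higher with 1 library left out. The one 381.7 kb from Nfkbia (chromosome 6, 76652206 to 76652757, minus strand) averaged 241 CPM in dehydrated and 333 CPM in control kidneys. Its difference was -0.47 on the log2 scale (SE 0.08; adjusted p of 0.0043 in edgeR), and -0.53 to -0.40 with 1 library left out. In both, no dehydrated kidney overlapped the control kidneys.

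The nearest called neighbour of a chemokine was a gene 9.2 kb downstream of Ccl2 on the same strand (chromosome 10, 69423086 to 69424979), singled out after its values were seen; the tables used here do not pair its identifier with a name. It had 3.38, 1.91, 0.673, 1.04 and 1.17 CPM in dehydrated replicates 1, 2, 4, 5 and 6. The control kidneys had 0.271, 0.487, 0.541, 0.747 and 0.789 CPM in replicates 2, 3, 4, 5 and 6. In dehydrated kidneys it ordered the animals exactly as Ccl2 did, replicate 1 first and replicate 4 last, and in control kidneys it did not.

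The fit gave 1.53 on the log2 scale (SE 0.41), with an adjusted p of 0.036 in edgeR and 4 of 5 dehydrated kidneys above the highest control kidney. The call was lost in 5 of the 10 fits with 1 library left out, those without dehydrated replicates 1 or 2 or control replicates 2, 3 or 4. Its log2 fold change was 1.08 to 1.72 over all 10 of these fits and 1.08 to 1.52 in the 5 without the call. The gene 3.2 kb downstream of Icam1 on the same strand (22050222 to 22057209), also singled out after its values were seen, was low, 0.716 CPM in dehydrated and 0.361 CPM in control kidneys on average, and its difference of 0.98 on the log2 scale (SE 0.28; adjusted p of 0.043 in edgeR) kept its call in 3 of the 10 fits, those without dehydrated replicate 4 or control replicates 2 or 3. Icam1 itself, with far more fragments, differed by 10.8%.

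The 2 genes whose log2 CPM was most like that of Ccl20 over the 10 libraries, among the 12549 genes that averaged 2 CPM or more, were ENSRNOG00000026053 (chromosome 3, 105203309 to 105214989, minus strand) with Pearson's r = 0.983 and ENSRNOG00000014876 (chromosome 9, 119517101 to 119591533, plus strand) with r = 0.982. These r are given as a description: the 10 points fall into the 2 groups, and any gene with a large difference between the groups scores high. The group differences of these 2 genes were favoured by that choice, so they too are a description and carry no test. ENSRNOG00000026053 had 176 ± 35.0 CPM in dehydrated and 68.8 ± 9.34 CPM in control kidneys (SD, n = 5 each), 1.35 higher on the log2 scale (SE 0.13). ENSRNOG00000014876 had 163 ± 15.1 CPM in dehydrated and 81.6 ± 10.1 CPM in control kidneys (SD, n = 5 each), 0.99 higher on the log2 scale (SE 0.09). Ranked by Spearman's rho instead, neither was among the first 2. By Pearson's r, Nfkbia stood 409th in likeness to Ccl20 (r = 0.820), Icam1 1536th (r = 0.615), Ccl2 1622nd (r = 0.599) and Vcam1 10918th (r = -0.581).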

How the data were processed

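The deposited values are raw fragment counts per Ensembl gene from featureCounts 1.6.2, run on trimmed read pairs aligned with Rsubread, with strand setting 2 and Ensembl release 103 annotation of Rnor_6.0, per the file headers; no source used here states the aligner version or the trimming tool. The authors' deposited table gives log2 fold changes with standard errors and adjusted p-values from DESeq2, per the submitters' processing notes; its 10 per-library columns were not used.

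Counts were fitted with edgeR 4.0.16 (glmQLFit, glmQLFTest; R 4.3.3), TMM scaling, filterByExpr (minimum count 10, minimum total 15) and Benjamini-Hochberg adjustment over 15047 tested genes. The SE is the absolute log2 fold change divided by the square root of F. CPM is TMM-scaled; FPKM divides it by the deposited exon length. The code was run on counts simulated from the fitted means and dispersions with planted fold changes. Such counts cannot show whether the model suits these animals. Replicates were compared before averaging: chi-square per degree of freedom was 13.3 to 32.1 in 20 pairs, so none were duplicates. Each library is 1 animal. DESeq2 1.42.0, limma 3.58.1 voom, other scaling, no filter, left-out and exchanged libraries and a replicate block were alternatives. Members, lists and motifs were chosen with earlier results of these data known. Named genes were the 5 members and the 2 genes most like Ccl20 (Pearson's r of log2 CPM, mean of at least 2 CPM); others are marked as chosen after their values were seen. Precision is set by 5 animals a group; counting figures cover counting error only.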

Additional observations from a re-analysis of the deposited data

Results flagged for a closer look

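The sets examined were the 5 genes and the library totals in each group, 12 sets of 5 values. In 2 of them, 1 kidney lay far from the rest of its group. About 1 in 20 sets of independent, normally distributed values would show such a gap by chance. Whether these values are normally distributed was not tested. Ccl20 in dehydrated replicate 5 was 13 CPM, while the nearest dehydrated kidney had 7.70 CPM and the lowest 5.84 CPM, a gap of 0.740 of the group's range. Nfkbia in dehydrated replicate 2 was 70.8 CPM, while the nearest dehydrated kidney had 49.1 CPM and the lowest 43.8 CPM, a gap of 0.801 of the range. On log2 CPM, a scale chosen after seeing the data, the gap was 0.654 of the range for Ccl20, below the 95% critical value for 5 samples that it passed on linear CPM, and 0.759 for Nfkbia, which stayed above it. The animals are different ones, and replicate 5 had rank 4 of 5 for Nfkbia. Without the kidney in question the log2 fold change was 3.12 for Ccl20 and 0.53 for Nfkbia.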

How the results depend on the processing

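Over 16 alternatives that keep the titled groups, log2 fold changes were 3.12 to 3.63 for Ccl20, 0.53 to 0.76 for Nfkbia, 0.62 to 1.47 for Ccl2, 0.07 to 0.23 for Icam1 and -0.18 to -0.09 for Vcam1. Ccl20 and Nfkbia passed the all-gene threshold in all 16, Ccl2 in 5, Icam1 and Vcam1 in 0. With 1 library left out, Ccl20 ranged from 3.12 to 3.63, Ccl2 from 0.78 to 1.47, Icam1 from 0.09 to 0.23, Vcam1 from -0.15 to -0.09 and Nfkbia from 0.53 to 0.76; 2 to 3 of the 5 genes were called, and over all genes 879 to 1382, 485 to 763 of them higher and 378 to 619 lower, the 378 without control replicate 4, against 1275, 707 and 568 with all libraries. When both replicates numbered 6 were dropped, 896 genes were called (461 higher, 435 lower), in a fit of fewer libraries. With these 2 libraries exchanged between the groups, the log2 fold changes were 1.95 for Ccl20, 0.38 for Nfkbia and -0.02 for Icam1, and 0 of the 5 genes and 0 genes in all were called by edgeR (0 higher, 0 lower), with 1654 at an unadjusted p below 0.05; if the titles are right, each group of that fit holds both treatments. With the number as a replicate block over the 4 shared numbers, 772 genes were called (431 higher, 341 lower), with Ccl20 at 3.33, Nfkbia at 0.64 and Ccl2, not called, at 0.62. The fit rests on 8 libraries. It lacks dehydrated replicate 1, the dehydrated kidney with the most Ccl2, and control replicate 3, the control kidney with the least. Without dehydrated replicate 1 alone and with no block, Ccl2 was at 0.78. The numbers are not said to pair animals. Deviations of same-numbered kidneys from their group means correlated with r from -0.054 to 0.14, and 1 of 4 correlated best with its own number. Of the genes near the 5, 3 were called within 250 kb, 6 within 500 kb and 7 within 1000 kb. The planned lists could not be run, for want of symbols. In control kidneys Ccl20 had 17 to 42 fragments, which limits its control level.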
